A study of Danio rerio with 4 samples.

Results

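The genes described here were listed as higher at 4 days after retinal injury and were listed in neither direction after the same injury with valproic acid (VPA). They were chosen by their measured values: a gene was taken if it had 1 annotated transcript in the higher table at 4 days, if its FPKM plus 0.1 was at least 2 times that of uninjured retina, and if its gene ID was absent from both VPA tables. Genes whose names start with rpl or rps, the cytosolic ribosomal protein genes, were left out. This gave 191 of the 893 genes listed higher at 4 days. FPKM is a fragment count normalised for transcript length and library size. Absence from the VPA tables means that a gene did not pass the filter behind those tables, not that its level was 0, and no VPA level is given here for any of the 191 genes.

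Whole retinae of wild type zebrafish, 10 months old, were profiled by RNA sequencing in 4 groups. The groups used here were uninjured retina, retina 12 hours post injury (12 hpi), retina 4 days post injury (4 dpi), and retina 4 days post injury from fish immersed in 100 µM VPA for those 4 days (4 dpi + VPA). All fish were kept at 26-28 degree C under a 14-10 hour light-dark cycle, and the kind of injury was not given in the sources. The design speaks of duplicates, but the tables hold 1 FPKM value per group, so no difference below has a replicate check and no test was run.

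After injury, Müller glia of the zebrafish retina re-enter the cell cycle and give rise to progenitors that replace lost neurons. A dividing cell must copy its DNA and package the copy, and replication-dependent histone genes, which lie in clusters of short genes, are transcribed mainly in S phase. VPA inhibits histone deacetylases, the enzymes that remove acetyl groups from histone tails. In whole retina, a change in the number of cells of a type and a change in RNA per cell cannot be told apart.

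The ratio threshold removed nothing. Of the 893 genes, 408 had 1 transcript, and the lowest ratio among these was 2.68, that of celsr1b, with an FPKM of 2.28 in uninjured retina and 6.29 at 4 dpi. celsr1b encodes an atypical cadherin of planar cell polarity. The next lowest members were psma1, a proteasome subunit, at 28.6 and 79.5, and si:ch211-288g17.3 at 24.99 and 69.9. No gene lay just outside the threshold. The membership was therefore set by absence from the VPA tables: 194 of the 408 genes were absent (47.5%), and 3 of these were ribosomal protein genes. The other 214 were all in the higher VPA table and none was in the lower one.

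The members spanned a wide range of levels. Their uninjured FPKM ran from 0 to 317 with a median of 2.21, and their 4 dpi FPKM from 1.03 to 2735 with a median of 16.04. The median change at 4 dpi was 3.06 on the log2(FPKM + 0.1) scale, beside 3.14 over the 408 genes with 1 transcript and 2.69 over all 893. Listed at 0 in uninjured retina were 30 members, whose 4 dpi FPKM ran from 1.03 to 7.55. By the annotation in the files, 182 members were protein coding, 3 were lincRNA, 2 were processed transcripts, and 1 each was a miRNA, a snoRNA, a misc_RNA and an unprocessed pseudogene.

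Support from the authors' own test was thin. In the authors' deposited table, 3 members were marked significant, each with q = 0.0421, and 172 had a q above 0.5. The median p in the authors' deposited table was 0.0187 for the members and 0.00705 for the 214 genes also listed with VPA, of which 23 were marked significant. The 3 marked members were all listed at 0 in uninjured retina. The first was si:dkey-203a12.2, named spink2.7 in the names table, with an FPKM of 6.57 at 4 dpi. The others were slc6a14, a transporter of neutral and cationic amino acids (chr11:20833457-20854004), at 2.07, and c3a.1, a complement C3 gene (chr1:55460925-55507680), at 1.23.

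The largest group of members lay in stretches of the genome that held histone genes. In 5 stretches of the genome build GRCz10, at least 5 members followed one another with gaps under 250 kb and at least 3 genes raised at 4 dpi carried a histone name. These blocks were defined after the values were seen. They held 57 of the 191 members (29.8%) and, with a margin of 25 kb, 77 of the 408 1-transcript genes raised at 4 dpi (18.9%). Since runs of members defined the blocks and absence with VPA defined the members, these shares describe the set only. On chromosome 7 they were chr7:5787623-5857076 with 10 members, chr7:6204799-6330302 with 15 and chr7:73595913-73636124 with 8. On chromosome 25 they were chr25:34545426-34677389 with 16 members and chr25:35760530-35813239 with 8.

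Of the 57, 27 carried a histone name in the files or the names tables: 7 for the linker histone H1, 2 for H2A, 9 for H2B, 2 for H3 and 7 for H4. A histone name here means a gene or protein name or, for H1 only, an annotated linker histone domain, so the families were not sought equally. The linker histone H1 binds DNA between nucleosomes, and the other 4 families form the nucleosome core. A further 29 carried clone or sequence names only, and no family is given to them here; 9 of these spanned 312 bases, as did 4 of the named H4 genes. The remaining member was deposited as ano9a, a name of the anoctamin membrane protein family, but is si:dkey-261m9.5 in the names table, so its identity is uncertain. It lay at the end of the first chromosome 25 block (chr25:34650659-34677389) and had an FPKM of 4.84 in uninjured retina and 88.5 at 4 dpi. The other 56 block members were short, with spans from 312 to 1306 bases, against a median of 8931 bases for the members outside the blocks.

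All 56 were at an FPKM of at least 15.5 at 4 dpi, and the highest was at 328. In uninjured retina they lay between 0.264 and 37.8, with a median of 6.95, and their median at 4 dpi was 78.3. Uninjured and 4 dpi values of the set thus overlapped, but within each gene the 4 dpi value was at least 3.84 times the uninjured one by (FPKM + 0.1), with a median of 13.1. Of the 30 members with the highest FPKM at 4 dpi, 23 lay in the blocks.

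The families had different medians, with overlapping ranges. The 7 H4 genes were between 5.34 and 37.8 FPKM in uninjured retina and between 66.5 and 253 at 4 dpi. The highest of them was 1 of 2 genes named zgc:163040, at 37.8 and 253, and hist1h4l stood at 10.2 and 238. HIST1H4E (chr25:35796147-35796459) went from 5.34 to 98.1. The 7 H1 genes had lower medians, with a value of 2.78 in uninjured retina and 68.4 at 4 dpi, and had a median ratio of 22.3. The 9 H2B genes had the smallest median ratio of the named families, 6.196, with 4 dpi values from 15.5 to 116. The 2 H3 genes stood at 17.6 and 72.2 at 4 dpi, and the 2 H2A genes at 81.3 and 135.

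Among the block members without a histone name, si:dkey-108k21.28 had the highest 4 dpi level, at 15.13 in uninjured retina and 328 at 4 dpi. It was followed by si:ch211-113a14.10 at 7.57 and 275, FP236812.5 at 8.90 and 265, si:dkey-261m9.17 at 18.7 and 263, and si:dkey-261m9.9 at 8.90 and 186. Near-identical histone copies can share reads, which leaves the level of a single copy uncertain. Separately, 6 of the block genes had exactly the uninjured FPKM of another. One such pair was si:ch211-113a14.10 and si:ch211-113a14.26, both at 7.57 in uninjured retina and at 275 and 174 at 4 dpi. The lowest shared value was 0.613. Equal fragment counts over genes of equal length also give equal values, and the source of these ties was not tested.

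**Figure D1:**
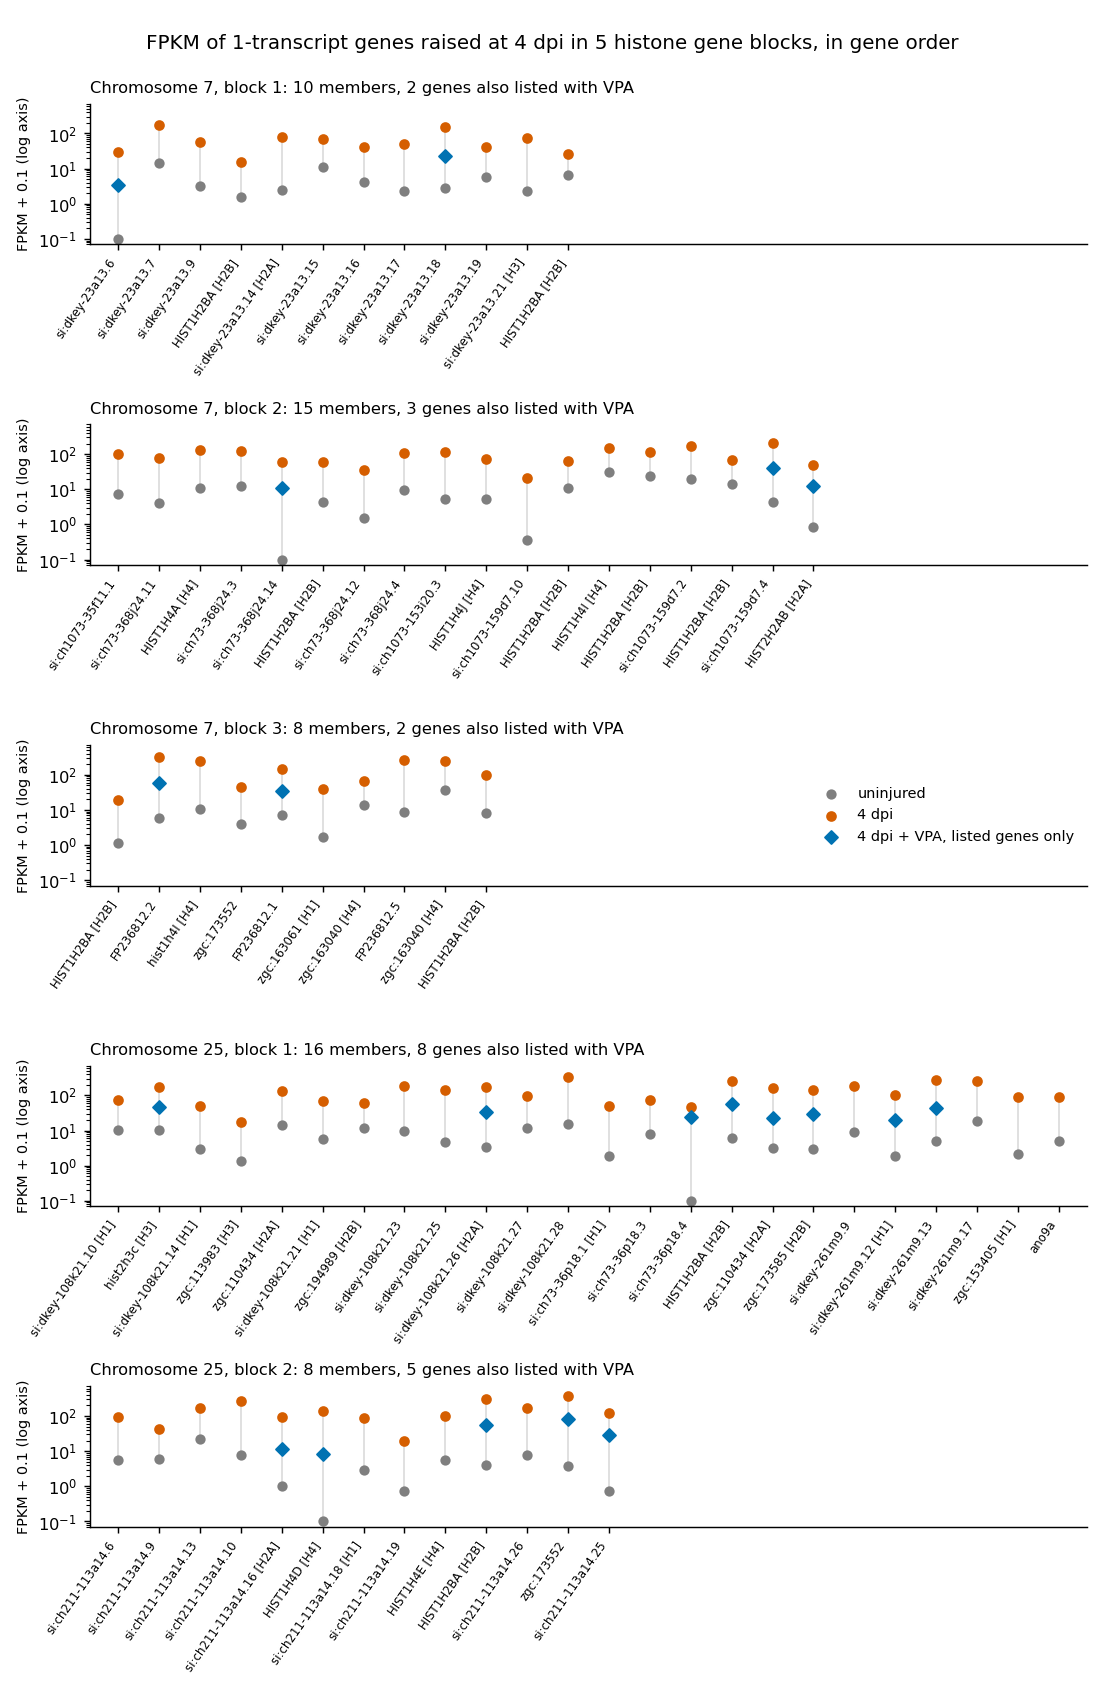
FPKM plus 0.1 (log axis) of the 1-transcript genes raised at 4 dpi in the 5 histone gene blocks, in their order along the chromosome. Histone families stand in square brackets where a name, or for H1 a protein domain, gives one. Grey points are uninjured retina, orange points 4 dpi and blue diamonds 4 dpi + VPA, which exist only for the 20 genes listed there; every blue diamond lies between the other 2 values of its gene.

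The other 20 of the 77 block genes were also listed with VPA, and that listing is what kept them out of the membership. They are the part of the block genes that passed the VPA filter, so their values need not hold for the 57 members, and being above uninjured retina was fixed by the table they were taken from. All 20 were lower with VPA than at 4 dpi without it. Their median FPKM was 3.02 in uninjured retina, 148 at 4 dpi and 29.8 at 4 dpi + VPA. The median ratio of VPA to 4 dpi, by (FPKM + 0.1), was 0.194, with a range from 0.0599 to 0.498.

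HIST1H4D, an H4 gene, was listed at 0 in uninjured retina, at 140 at 4 dpi and at 8.29 with VPA. hist2h3c, an H3 gene, was at 10.0, 168 and 47.8, and the linker histone gene si:dkey-261m9.12 at 1.79, 103 and 19.96. One H2B gene named HIST1H2BA was at 3.87, 304 and 56.6. In each of the 4 genes the VPA level was under 0.5 of the 4 dpi level. The narrowest gap was that of si:ch73-36p18.4, listed at 0, 47.9 and 23.8.

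Over all 214 genes listed in both, the same ratio had a median of 0.874, and 46 genes were under 0.5, the 20 block genes among them. A histone gene outside the blocks, h2afx, whose product marks DNA breaks when phosphorylated, was at 6.31, 135 and 35.8, a ratio of 0.266. The 7 listed genes of the replication, mitosis and mitotic kinesin lists had ratios from 0.267 to 0.702. The 14 listed genes of the macrophage and microglia list had a median of 1.11, and all 6 of the crystallin and surface epithelium list (lens, cornea, skin) were above 1. Both injured groups were set against the same uninjured values, which were identical in both tables for all 214 genes, and the ratio compares 1 value with 1 value.

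Replication-dependent histone mRNAs end in a stem-loop and carry no poly(A) tail, and whether the libraries were selected for poly(A) was not given in the sources used here. Signal recognition particle RNA has no poly(A) tail either. Its 10 gene copies listed as higher both with and without VPA had a median VPA to 4 dpi ratio of 2.301, with 2 of the 10 below 1. These copies had passed the VPA filter, while a further copy was a member and so was absent with VPA. A copy of U3, a small nucleolar RNA that also lacks the tail, was listed at 0, at 35.2 at 4 dpi and at 14.9 with VPA, and another copy was a member. The part of library selection in the histone values was not tested.

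**Figure D2:**
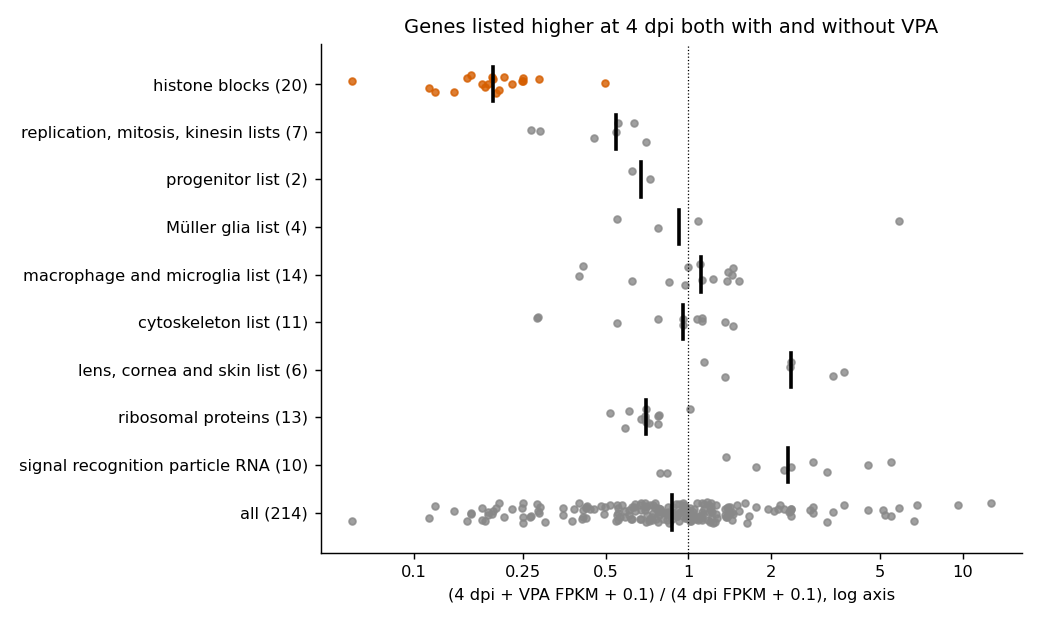
Ratio of FPKM plus 0.1 at 4 dpi + VPA to that at 4 dpi (log axis) for the 214 1-transcript genes listed as higher in both, with 1 point per gene, the median of each set as a black bar and the number of genes in brackets; sets can share genes. The 20 histone block genes, in orange, all lie below 0.5, while the 214 genes together centre on 0.874.

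Chromatin proteins outside the blocks were also among the members. h2afvb, which encodes a replication-independent H2A variant, was at 9.31 in uninjured retina and 34.4 at 4 dpi. hells, an SNF2-family remodeller needed for DNA methylation, was at 0.821 and 10.1. hmgb2b, a high-mobility-group DNA-bending protein, was at 25.5 and 134. On the chromatin list of 80 genes, 19 were listed higher at 4 dpi and 5 with VPA, while 3 and 2 were listed lower. Of the 15 raised chromatin genes with more than 1 transcript, 12 were absent with VPA, against 56.7% of all 485 such genes. That comparison is looser, here and in the lists below, since genes were tested at 4 dpi and single transcripts with VPA.

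Among genes of DNA replication, 6 were members. cdc6, which loads the replicative helicase at origins (chr11:11799842-11812678), was at 0.356 in uninjured retina and 5.05 at 4 dpi. rpa3, the small subunit of the single-strand binding protein RPA, was at 1.78 and 15.7. fen1, the flap nuclease that trims Okazaki fragments, was at 3.86 and 17.5. The leading-strand polymerase gene pole was at 0.263 and 2.86, and ticrr, which helps start origins and is annotated in the files as an unprocessed pseudogene, at 0.218 and 2.28. dscc1, part of a loader of the sliding clamp, was listed at 0 and at 2.01. These genes were low in uninjured retina, and only rpa3 and fen1 passed an FPKM of 10 at 4 dpi.

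The replication list held 60 genes. At 4 dpi 17 were listed higher and 0 lower, and with VPA 4 were listed higher and 0 lower. Of the 8 with 1 transcript, mcm5 and pold1 were listed with VPA, at 8.93 and 6.25 against 16.1 and 8.94 without it. Of the 9 with more than 1 transcript, 8 were absent with VPA, beside the same 56.7%.

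Members with roles in mitosis also numbered 6. ckap2l, a spindle protein, was at 0.464 and 6.58, and cenpi, a centromere protein, at 0.812 and 8.21. ncaph2, a condensin II subunit, was at 0.782 and 6.56, and espl1, the separase that opens cohesin rings, at 0.513 and 3.56. plk4, the kinase of centriole duplication, was at 0.795 and 3.96. wee1, the kinase that holds back entry into mitosis, was at 1.66 and 9.77. None of the 6 reached an FPKM of 10 at 4 dpi.

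On the mitosis list, 38 genes were listed higher at 4 dpi and 14 with VPA, while 0 and 1 were listed lower. Of its 10 raised genes with 1 transcript, 6 were members, where 47.5% of all such genes were absent with VPA. Of its 28 with more than 1 transcript, 17 were absent with VPA, beside 56.7% of all such genes. Those with 1 transcript that were listed with VPA were lower there than at 4 dpi: mki67, the proliferation marker Ki-67, was at 0.339 in uninjured retina, 23.6 at 4 dpi and 6.22 with VPA. The centromere protein gene cenpf was at 0.311, 13.7 and 3.88. For ncaph and esco2, also listed with VPA, the ratios of VPA to 4 dpi were closer to 1, at 0.545 and 0.636. CKAP2, a relative of ckap2l that is not on the list, was at 0, 5.19 and 5.63.

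Progenitor transcription factors formed the next group. olig2, a basic helix-loop-helix factor of neural progenitors and oligodendrocyte precursors (chr9:32940681-32942789), was at 0.671 in uninjured retina and 15.4 at 4 dpi, a ratio of 20.2. atoh7, the factor required for retinal ganglion cell fate (chr13:25319230-25320275), was at 1.15 and 11.3. hes2.2, of the hairy and enhancer-of-split family of repressors, was at 1.09 and 8.48. sox2, which is expressed in retinal progenitors and also in Müller glia, started higher and had a smaller ratio, at 7.54 and 23.9.

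On the progenitor list of 72 genes, 13 were listed higher at 4 dpi and 5 with VPA. Of its 7 raised genes with 1 transcript, 5 were members, where 47.5% of all such genes were absent with VPA. The 2 others, sox11b and ascl1b, were listed with VPA at ratios of 0.622 and 0.723 to their 4 dpi levels. Of its 6 raised genes with more than 1 transcript, 4 were absent with VPA, beside 56.7% of all such genes. olig2 was also on the oligodendrocyte list of 25 genes, of which 4 were listed higher at 4 dpi and 1 with VPA. It was the only raised 1-transcript gene of that list. Of the 3 with more transcripts, mag and mbpb were absent with VPA and cnp was listed. sox21b, a further SOX gene and named here after its value was seen, was a member at 0 and 1.17. gadd45gb.1, a growth-arrest and DNA-damage-inducible gene placed on the immediate early list, was at 0.819 and 13.3. It was the only member among the 6 raised 1-transcript genes of that list, and the other 5 were listed with VPA.

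The Notch ligand gene dld (chr13:5947111-5953343) was at 0.439 in uninjured retina and 7.26 at 4 dpi. Delta ligands on one cell activate Notch receptors on its neighbour. Of the 46 genes on the Notch list, 6 were listed higher at 4 dpi, and none was listed higher with VPA. The 5 besides dld were dla, dlb, dlc, her4.2 and notch1a, all with more than 1 transcript, a class in which 56.7% of all raised genes were absent with VPA.

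Receptors and effectors of Wnt and Hedgehog signals were represented by 3 members. The Wnt receptor gene fzd5, expressed in retinal progenitors of several vertebrates, was at 4.94 and 40.7 (chr9:28421775-28423698). The Hedgehog signal transducer smo was at 1.13 and 4.78 and the transcription factor gene gli2a at 1.30 and 5.01. Of the 110 genes on the list of Wnt, Hedgehog, TGF-beta and FGF signals, 11 were listed higher at 4 dpi and 6 with VPA. Members were 3 of its 5 raised 1-transcript genes, and 3 of its 6 with more transcripts were absent with VPA. Over all such raised genes, 47.5% and 56.7% were absent with VPA. The 2 other 1-transcript genes were listed with VPA. These were another Wnt receptor gene, fzd2, at 1.16, 7.51 and 6.51 with VPA, and tgfbi at 1.86, 7.61 and 8.24.

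**Figure D3:**
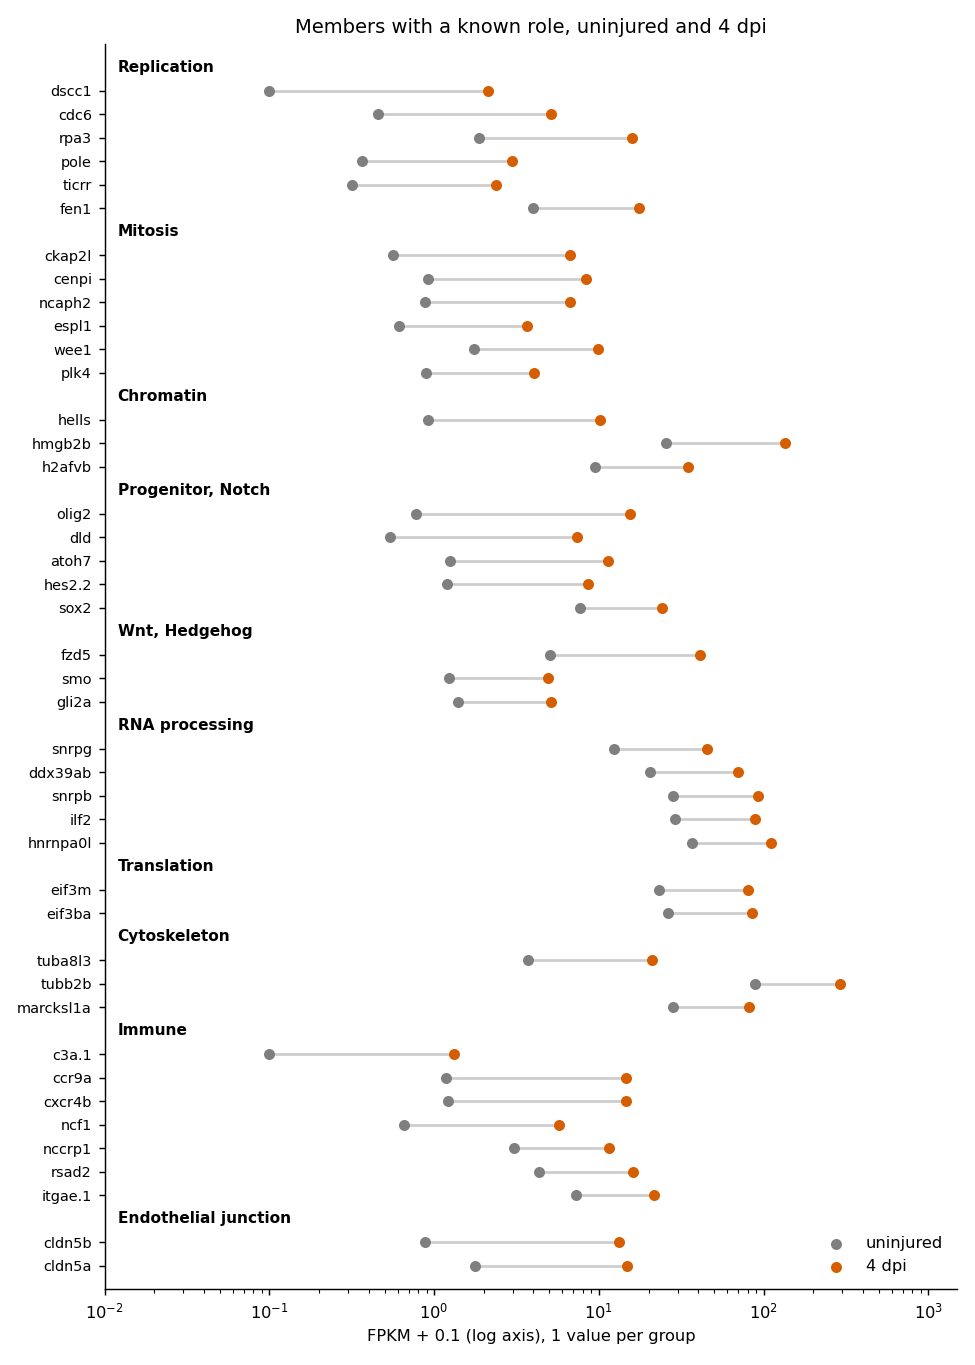
FPKM plus 0.1 (log axis, 1 value per group) of members outside the histone blocks, grouped by role, in uninjured retina (grey) and at 4 dpi (orange). Genes of replication and mitosis start below an FPKM of 4 and stay below 20, while those of RNA processing and translation start above 12.

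RNA processing genes were abundant and covered a narrow range of ratios. snrpb and snrpg, core proteins of the spliceosomal snRNPs, were at 27.9 and 92.7 and at 12.3 and 44.9. ilf2, a double-stranded RNA binding factor, was at 28.8 and 88.9, the RNA helicase gene ddx39ab at 20.3 and 69.5, and hnrnpa0l at 36.9 and 110. Their ratios ran from 2.99 to 3.62. Of the 127 genes on the RNA processing list, 13 were listed higher at 4 dpi and 2 with VPA. Members were all 5 of its raised 1-transcript genes, and 7 of its 8 with more transcripts were absent with VPA. Over all such raised genes, 47.5% and 56.7% were absent with VPA.

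Among genes of protein synthesis, eif3m and eif3ba, subunits of translation initiation factor 3, were at 22.9 and 80.6 and at 26.3 and 84.3. The most abundant member was a copy of U3, the small nucleolar RNA of early ribosomal RNA cleavage (chr1:15765587-15765803), at 317 and 2735. Members outside these groups included prdx2, a peroxide-reducing enzyme, at 43.4 and 155, and psma1.

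Cytoskeletal members were few. tubb2b, a beta tubulin of developing neurons, was at 88.7 and 292, the alpha tubulin gene tuba8l3 at 3.61 and 20.9, and marcksl1a, an actin-binding membrane substrate of protein kinase C, at 27.9 and 81.3. Its relative marcksa was at 1.32 and 22.7. Of the 14 raised 1-transcript genes on the cytoskeleton list, 3 were members, where 47.5% of all such genes were absent with VPA. The other 11 were also listed with VPA. Of those 11, 2 were well below their 4 dpi level with VPA, tuba1a at 263 and 73.8 and tubb5 at 224 and 63.2. Of the 15 raised genes on that list with more than 1 transcript, 3 were absent with VPA, beside 56.7% of all such genes.

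Immune genes were split by list. Of the macrophage and microglia list of 110 genes, 46 were listed higher at 4 dpi and 36 with VPA. Of its 29 raised genes with more than 1 transcript, 11 were absent with VPA, beside 56.7% of all such genes. Of its 17 raised genes with 1 transcript, 3 were members, where 47.5% of all such genes were absent with VPA. The 3 members were cxcr4b, a chemokine receptor, at 1.11 and 14.5, ncf1, a subunit of the phagocyte oxidase, at 0.557 and 5.61, and itgae.1, an integrin alpha chain, at 7.11 and 21.5. On the neutrophil list of 27 genes, 7 were listed higher at 4 dpi and 5 with VPA. There, 3 of the 4 raised 1-transcript genes were members: ncf1, c3a.1 and nccrp1. The 3 raised genes with more than 1 transcript were all listed with VPA. The chemokine receptor gene ccr9a was at 1.08 and 14.6, nccrp1 at 2.96 and 11.3, and the interferon-induced antiviral gene rsad2 at 4.24 and 16.04. On the interferon list, rsad2 was the only member among 6 raised 1-transcript genes, and the other 5 were listed with VPA. Of the 11 raised interferon genes with more than 1 transcript, 7 were absent with VPA. cxcl19, a chemokine gene named here after its value was seen, was listed at 0 and 2.86.

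The spink2 genes, which encode Kazal-type inhibitors of serine proteases, formed the only block of members without histone names. Within chr14:14885719-15238635 lay 5 members, named spink2.7, spink2.10, spink2.3, spink2.11 and spink2.9 in the names table. All 5 were listed at 0 in uninjured retina, and at 4 dpi they were at 6.57, 5.22, 3.01, 2.21 and 1.04. A sixth raised gene of that stretch, si:dkey-203a12.6, was listed at 4.88 at 4 dpi and at 1.40 with VPA. Just past the stretch, whose ends were set by members, si:dkey-203a12.8 of the same clone series was also listed with VPA (chr14:15291485-15292243). It was at 0 in uninjured retina, 7.96 at 4 dpi, above all 5 members, and 1.21 with VPA. The VPA values of both neighbours were close to the FPKM of 1 that the tables required.

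Claudin 5 genes, whose products seal the junctions between endothelial cells of the blood-retina barrier, were both members. cldn5b was at 0.786 and 13.2 and cldn5a at 1.67 and 14.6. Of the 49 genes on the vascular list, 3 were listed higher and 1 lower at 4 dpi. With VPA none of the list was listed higher and 1 was listed lower. The list does not hold every endothelial gene. robo4 and mmrn2b, which are not on it, were listed higher with VPA. They were at 0.310 and 1.03 in uninjured retina and at 2.66 and 4.70 with VPA. Over all raised genes, 47.5% of those with 1 transcript and 56.7% of those with more transcripts were absent with VPA. The collagen gene col1a1b was the only member among the 9 1-transcript genes of the matrix list raised at 4 dpi, at 1.12 and 7.68. Of the 16 raised matrix genes with more than 1 transcript, 7 were absent with VPA, beside 56.7% of all such genes. The collagen genes col1a2, col4a1, col4a2 and col5a1 were among these 7.

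Few members were listed at 12 hpi. Of the 408 genes with 1 transcript, 63 were listed higher at 12 hpi (15.4%). The members accounted for 6 of these, 3.14% of 191, and the 214 genes also listed with VPA for 57, or 26.6%. None of the members was lower at 12 hpi. The 12 hpi values played no part in choosing the members, but the 12 hpi, 4 dpi and VPA comparisons all share the uninjured values. Members were chosen for failing the VPA filter, and the 12 hpi entries passed a filter of the same kind on single transcripts. The members also had the higher median p in the authors' own test at 4 dpi, 0.0187 against 0.00705. The shares therefore describe the sets only.

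trib3, a pseudokinase of the stress response, was at 3.88 in uninjured retina, 13.1 at 12 hpi and 15.17 at 4 dpi. plppr3a, a membrane protein of growing axons, was at 1.99, 6.55 and 13.1. The sorting nexin gene snx10b was listed at 0, 1.08 and 1.27. The 3 others had clone names: si:dkey-102g19.3 was at 1.92, 18.2 and 21.4, si:ch211-264g8.3 at 0, 3.195 and 1.53, and BX255935.1 at 0, 1.12 and 1.26. Only si:ch211-264g8.3 was higher at 12 hpi than at 4 dpi. No member of the histone blocks, of the replication list or of the mitosis list was listed at 12 hpi, beside 3.14% of all members. Nor was any other gene of the replication or mitosis list, so this is not particular to the members of those 2 lists. A block gene that was no member because it was also listed with VPA, si:ch73-368j24.14, was listed at 12 hpi, at 1.26.

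Since absence means failing a filter, the size of each member's rise was set beside the rises that were listed with VPA. For each member, the 1-transcript genes in the higher VPA table with an uninjured FPKM plus 0.1 within a factor of 2 were taken, between 1 and 96 genes of 292. The 4 dpi ratio exceeded the lowest such VPA ratio in 187 members and the median in 103 (53.9%). For the 214 genes listed in both, it exceeded the lowest in all 214 and the median in 142 (66.4%), so passing the lowest does not set the members apart. In the histone blocks it exceeded the median in 56 of 57 members, and outside them in 47 of 134. The members were chosen on these same 4 dpi values and on their absence with VPA, so the counts are a description of size and say nothing of why a gene was absent. The filter acted on p, which also depends on fragment counts that the tables do not hold.

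**Figure D4:**
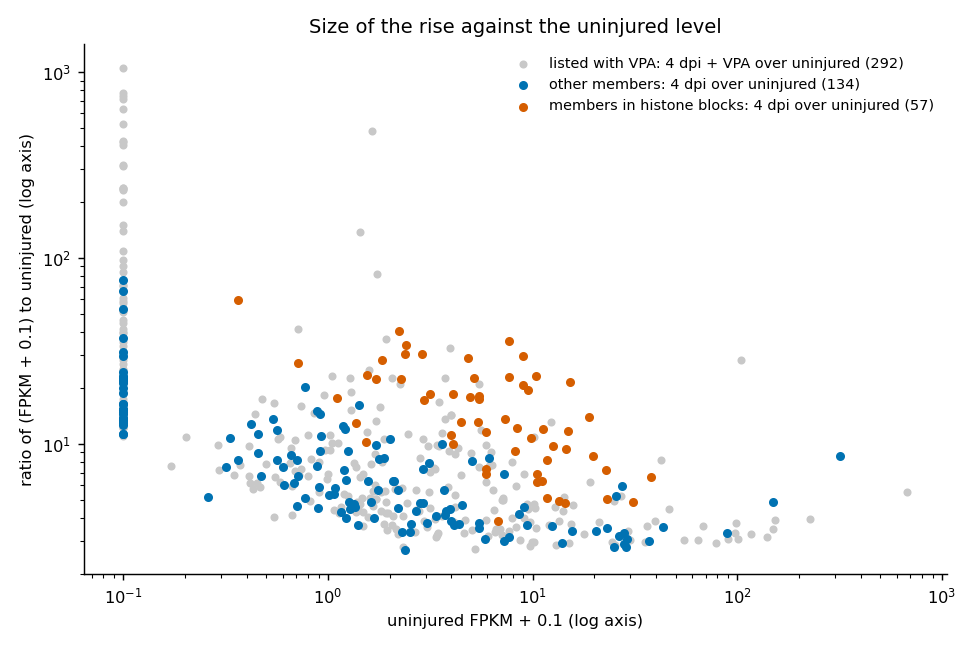
Ratio of FPKM plus 0.1 to uninjured retina against the uninjured FPKM plus 0.1 (both log axes), 1 point per gene. Grey points are the 292 1-transcript entries listed higher with VPA, at their VPA ratio; orange points (57, histone blocks) and blue points (134, other members) are at their 4 dpi ratio, and the column at 0.1 holds genes listed at 0 in uninjured retina.

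The share of members differed among the lists given here, which are part of 33 lists and can share genes. Many of the counts are small. Of the 1-transcript genes raised at 4 dpi, 6 of 8 on the replication list, 6 of 10 on the mitosis list, 5 of 7 on the progenitor list and 5 of 5 on the RNA processing list were members. For the neutrophil list it was 3 of 4, for the macrophage and microglia list 3 of 17, for the matrix list 1 of 9, for the lysosome list 0 of 4 and for the lens, cornea and skin list 0 of 6. The list of Wnt, Hedgehog, TGF-beta and FGF signals had 3 of 5, the inflammation list 3 of 8 and the chaperone list 2 of 7. The share over all 408 was 47.5% before ribosomal genes were left out. Absence with VPA chose the members, so these counts describe the set and test nothing. Photoreceptor markers, which define the tissue, were present in uninjured retina: the 5 such genes in the 4 dpi tables had uninjured FPKM values from 11.9 to 238, with 1 listed higher and 4 lower at 4 dpi.

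**Figure D5:**
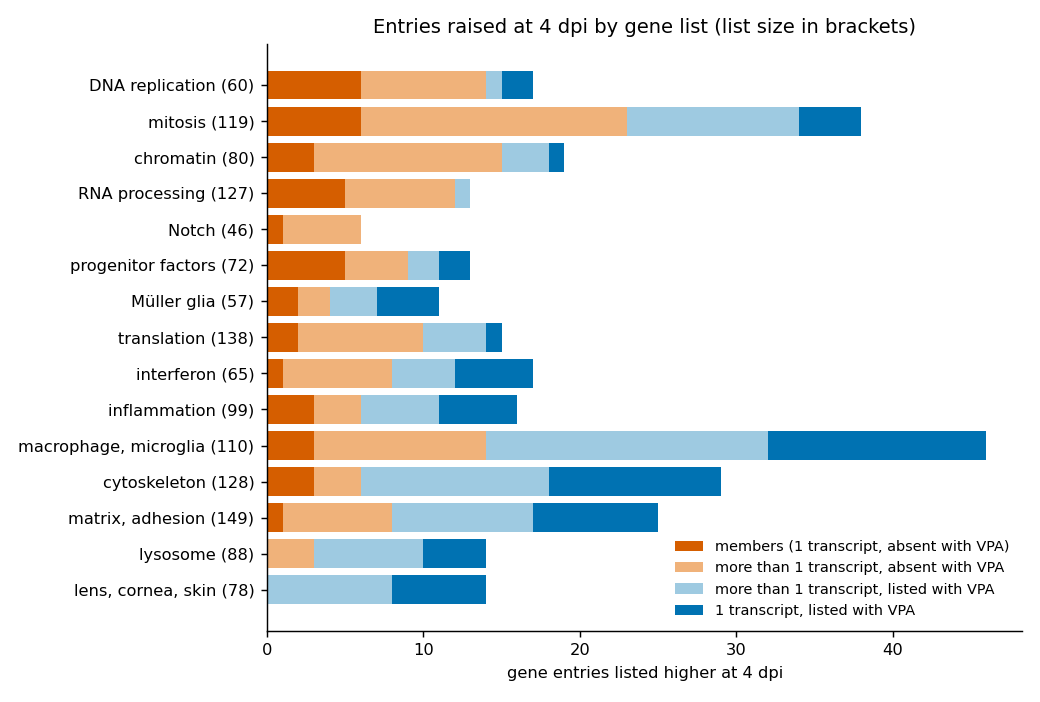
Number of entries listed higher at 4 dpi for 15 gene lists (list size in brackets), split by number of transcripts and by whether the gene was also listed with VPA. Dark orange marks the members and light orange the genes with more than 1 transcript that were absent with VPA; Notch has no blue part, and the lens, cornea and skin list has no orange part.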

How the data were processed

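The authors deposited a higher and a lower table for each injured group against uninjured retina, with 1 FPKM value per group, on the build GRCz10; per the submitters' processing notes, the tools were Cufflinks 2.2.1, TopHat2 2.1.0 and Bowtie2 2.2.2. The log2 fold change, test statistic (a score), p-value and q-value are the authors' own, per the file headers, and were not recomputed. No listed entry had p above 0.05 or less than an FPKM of 1 in its higher group. The 4 dpi tables list genes, the others single transcripts, so 1-transcript genes were used. Depth per library is unknown. Coordinates are as deposited, and whether starts count from 0 or 1 was not given in the sources used here.

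Ratios used FPKM + 0.1 (Python 3.11.15, pandas 2.3.3). The selection was checked on simulated tables. Members, gene lists and blocks were chosen with earlier results of these data known. Named were members marked significant, the 10 of largest ratio and 10 of highest FPKM, up to 6 per list by ratio, those listed at 12 hpi, and the 3 nearest the threshold. Histone names came from the deposited gene and protein names, a gene name table and RefSeq synonyms (GRCz12tu, names only). For H1 only, the deposited protein domain annotation was also used. Some members that this rule names are not reported here.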

Additional observations from a re-analysis of the deposited data

How the results depend on the processing

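No paired analysis was possible because each group has 1 value, and for the same reason no replicate could be left out. With any number of transcripts there were 443 members, 11 listed at 12 hpi, 429 above the lowest comparable VPA ratio, and a median log2 change of 2.65. With the authors' p of at most 0.01 the values were 62, 3, 62 and 3.76. Members listed at 12 hpi fell to 3 with a 4 dpi FPKM of at least 5 and to 3 with an uninjured FPKM of at least 0.1. The median log2 change was 3.41 with a least ratio of 4 and 2.09 with a pseudocount of 1. The smaller sets follow from fewer genes entering. The other settings for these results, a least ratio of 1.5, a pseudocount of 0.01, absence by gene name (178 members) and ribosomal protein genes kept (194), left each count within 1.5 times and the median within 10% of the value reported. The 134 members outside the histone blocks, a setting added after the data were seen, had a median of 2.67. The median VPA to 4 dpi ratio of the block genes, likewise an added result, was 0.194 and reached 0.199 with a pseudocount of 1. Depth is unknown, and FPKM of genes as short as most block members, or with near-identical copies, is less certain than that of longer genes.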
